A study of Drosophila melanogaster with 5 samples.

Results

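Malpighian tubules (MTs) of flies with a gut tumor and MTs of flies with an activated Pvr receptor in their principal cells held nuclei that the deposited annotation placed under the same names. The 3 clusters compared here were renal stem cells (Pvr-act), lower segment principal cells (Pvr-act) and lower tubule principal cells (Pvr-act), each of which had at least 170 nuclei in both libraries. They held 8534 of the 21371 nuclei of the series, 953 from the EGT>Yki library and 7581 from the PCts>Pvr Activation library. The question was which genes the clusters of one name shared between the genotypes, and which set the genotypes apart.

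The series measured RNA in single nuclei of MTs from female flies, with 1 library for each of 5 genotypes and 90 pairs of MTs pooled in each library. EGT>Yki (Yki) carried esg-GAL4 and tub-GAL80TS with UAS-GFP and UAS-yki3SA, an active form of the growth regulator Yorkie. PCts>Pvr Activation (Pvr act) carried CG31272-GAL4 and tub-GAL80TS with UAS-Pvr act. The control of Yki, EGT>w1118, had esg-GAL4, tub-GAL80TS and UAS-GFP with no yki transgene, and the control of Pvr act, PCts>W1118, had CG31272-GAL4 and tub-GAL80TS with no UAS transgene. All of these groups thus carried GAL4 and the temperature-sensitive GAL80, and both EGT groups also carried UAS-GFP. Flies of all groups were reared at 18 °C and then shifted to 29 °C, for 8 days by the protocols in the labels and for 5 days by the treatment field of the same labels. The study's methods give 8 days for the nuclei of both EGT groups. The esg driver is active in the progenitor cells of the gut and also in renal stem cells, so that yki3SA was not limited to the gut, whereas the CG31272 driver acts in principal cells. No group had a second library, and no p-value between genotypes could be had.

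The MT is the renal organ of the fly. Its principal cells (PCs) pump protons with a vacuolar H+-ATPase and carry cations into the lumen, stellate cells pass chloride and water, and renal stem cells (RSCs) lie in the lower tubule and ureter. Pvr is the receptor tyrosine kinase that binds the PDGF- and VEGF-related ligands Pvf1, Pvf2 and Pvf3, and it can act through the Ras-MAPK cascade and through JNK, whose transcription factor AP-1 contains the Fos protein encoded by kay.

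The renal stem cells (Pvr-act) numbered 476 Yki and 2505 Pvr act nuclei, the lower segment PCs (Pvr-act) 307 and 3395, and the lower tubule PCs (Pvr-act) 170 and 1681. They made up 26.2% of the Yki library (95% exact binomial interval 24.8 to 27.6) and 80.9% of the Pvr act library (80.1 to 81.7). The control libraries held almost none of them, 28 of 3380 nuclei in EGT>w1118 and 4 of 3015 in PCts>W1118. A further pair of clusters with the suffix 2 fell outside the rule, with 27 Yki against 690 Pvr act nuclei of renal stem cells 2 (Pvr-act) and 24 against 725 of lower segment principal cells 2 (Pvr-act). The Pvr act library had 0 nuclei annotated as ordinary renal stem cells, lower tubule PCs or main segment PCs.

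Depth differed between the libraries. The median nucleus of the renal stem cells (Pvr-act) had 470.5 unique molecular identifiers (UMIs) in Yki and 1745 in Pvr act, and 52.7% of the Yki nuclei but none of the Pvr act nuclei had under 500. In the lower segment PCs (Pvr-act) the medians were 1509 and 2748, and in the lower tubule PCs (Pvr-act) the order was the opposite, 13630 in Yki and 5151 in Pvr act. The lowest count of any nucleus was 500 UMIs in the whole Pvr act library, against 223 in Yki, 182 in EGT>w1118 and 188 in PCts>W1118. The shares of the libraries above and the renal stem cell comparison thus rest on unlike lower limits of UMIs. In all, the clusters held 4184878 UMIs in Yki and 37169555 in Pvr act. The libraries shared 2 cell barcodes within these clusters and 8 over all nuclei. Levels below are mean UMIs per 10000 over the nuclei of a cluster, differences are on the scale of log2(level + 1), and a gene counts as apart when it differs at least 2-fold on that scale. Intervals cover counting error only, and nothing below measures variation between flies.

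Nuclei outside the tubule showed how much RNA of each library was found in cells of other kinds. These were the tracheal, visceral muscle and fat body nuclei, 69 in Yki and 281 in Pvr act, and their level of a gene is given below as the outside level. In Yki they were 30 tracheal, 28 visceral muscle and 11 fat body nuclei, and in Pvr act 186, 26 and 69. An outside level thus averages a different mix of tissues in each library, and the part of that mix in differences between outside levels was not tested. The hemocyte list (5 genes) was at 0 in all 5 genes in Yki renal stem cells (Pvr-act), against a summed level of 2.86 in Pvr act, and the list summed to 0.00207 against 3.21 in the lower segment PCs (Pvr-act) and to 0.0377 against 1.98 in the lower tubule PCs (Pvr-act). Over the whole libraries the hemocyte list summed to 0.0123 in Yki and 11.4 in Pvr act. The stellate cell list (5 genes) went the other way, 7.90 against 1.35 in the renal stem cells (Pvr-act), 18.0 against 3.24 in the lower segment PCs (Pvr-act) and 6.67 against 1.67 in the lower tubule PCs (Pvr-act), with SecCl at the highest level in each. The part of these cell types in the differences below was not tested.

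Expression profiles of the clusters of one name were alike in both libraries. Across 6735 genes, the Yki renal stem cells (Pvr-act) correlated at r = 0.852 with the Pvr act cluster of the same name and at 0.648 and 0.705 with the Pvr act lower segment and lower tubule PCs (Pvr-act). The Yki lower segment PCs (Pvr-act) were also most like their namesake (0.887, against 0.793 and 0.845). The Yki lower tubule PCs (Pvr-act) were nearly as close to the Pvr act lower segment PCs (Pvr-act), at 0.851, as to their own namesake, at 0.856, and on pooled counts the order was reversed, at 0.844 and 0.843. After each gene was centred on its mean over the 3 clusters of a library, the namesake was again the closest for each cluster, at 0.847, 0.771 and 0.556 in the same order. These correlations run over genes, which are not replicates, and the nuclei had been clustered together by expression, so that likeness is partly set by the clustering. Of the 100 most abundant genes, the libraries shared 78 in the renal stem cells (Pvr-act), 64 in the lower segment PCs (Pvr-act) and 54 in the lower tubule PCs (Pvr-act).

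Most genes were close between the genotypes. The median absolute log2 difference was 0.33 over 2635 genes in the renal stem cells (Pvr-act), 0.28 over 3340 in the lower segment PCs (Pvr-act) and 0.13 over 6730 in the lower tubule PCs (Pvr-act), and 65.2%, 70.6% and 83.5% of genes differed by under 0.5. More genes of low level were tested in the deeper clusters, so that these medians do not rank the clusters by likeness. With a pseudocount of 0.1, 724 genes were 2-fold higher and 559 lower in the lower tubule PCs (Pvr-act), against 209 and 172 with 1. The control libraries, which differ in driver and in GFP, were the only measure of how far libraries vary. EGT>w1118 and PCts>W1118 were 2-fold or more apart in 44 of 1414 genes in ordinary renal stem cells (3.11%) and in 37 of 5501 in lower tubule PCs (0.673%), with median absolute differences of 0.24 and 0.08.

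**Figure D1:**
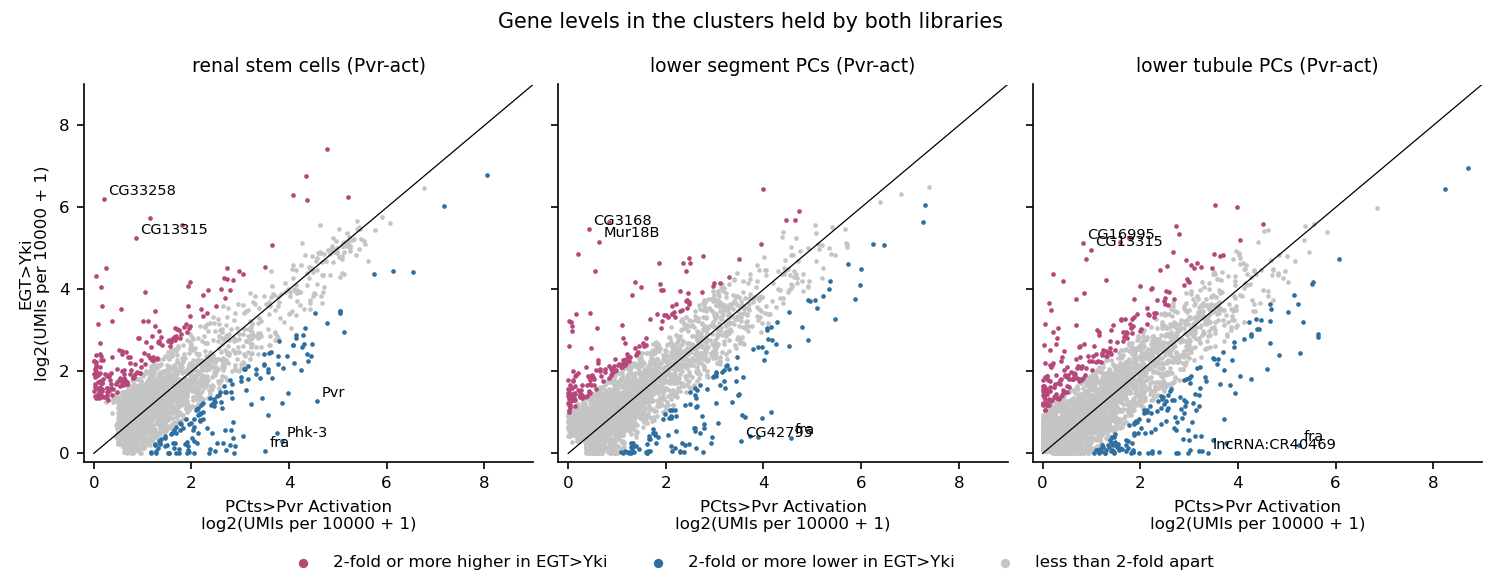
Mean level of each gene in EGT>Yki (vertical axis) and PCts>Pvr Activation (horizontal axis) in the 3 clusters, both as log2(UMIs per 10000 + 1). Each point is a gene, and the diagonal marks equal levels. Genes 2-fold or more higher in EGT>Yki number 186, 174 and 209 from left to right, and those 2-fold or more lower 154, 135 and 172.

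To find what both genotypes shared, each library was compared with its own control, the renal stem cells (Pvr-act) with ordinary renal stem cells and both PC clusters with lower tubule PCs. In the renal stem cells (Pvr-act), 152 of 2825 genes (5.38%) were 2-fold or more higher in Yki than in EGT>w1118, 292 (10.3%) were higher in Pvr act than in PCts>W1118, and 98 were higher in both, 64.5% of the Yki list and 33.6% of the Pvr act list. The lower segment PCs (Pvr-act) shared 153 of 229 (4.01% of 5712 genes) and 345 (6.04%) higher genes, and the lower tubule PCs (Pvr-act) shared 139 of 218 (3.13% of 6972 genes) and 402 (5.77%). Most of the genes higher than the control in Yki were also higher in Pvr act, while the Pvr act lists were longer. Nuclei of both genotypes had been clustered together by expression, so that these overlaps, and those of lower genes below, are partly set by the clustering. Among the shared higher genes the change was the larger one in Pvr act for 76 of 98, 114 of 153 and 96 of 139. The median change of the shared genes was 1.47 in Yki against 1.90 in Pvr act in the renal stem cells (Pvr-act), 1.52 against 2.03 in the lower segment PCs (Pvr-act), and 1.53 against 1.88 in the lower tubule PCs (Pvr-act).

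The same held for genes below the control. In the renal stem cells (Pvr-act), 125 genes (4.42%) were 2-fold or more lower in Yki, 378 (13.4%) in Pvr act, and 110 in both, 88.0% of the Yki list and 29.1% of the Pvr act list. Their reference, ordinary renal stem cells, was shallow, with medians of 548 UMIs in EGT>w1118 and 511 in PCts>W1118, and 45.5% and 48.3% of nuclei under 500. It held 10614 and 6421 UMIs of Alp4, a gene of lower tubule PCs, and the part of free RNA in this reference was not tested. Lower in both libraries were 169 genes in the lower segment PCs (Pvr-act), out of 225 (3.94%) in Yki and 377 (6.6%) in Pvr act. That count was 283 with lower ureter PCs as the reference and 85 with the Yki library's own lower tubule PCs as the reference of Yki. The lower tubule PCs (Pvr-act) shared 164, out of 211 (3.03%) in Yki and 417 (5.98%) in Pvr act, and the Yki library's own PCs as reference made it 58, and the 139 shared higher genes 77. The clusters have no counterpart in the controls, so that these changes mix the state of the cluster with the genotype. Set against the ordinary lower tubule PCs of the Yki library itself, 96 of the 153 and 72 of the 139 shared higher genes were still 2-fold higher in the Yki clusters, as were 73 of the 169 and 50 of the 164 shared lower genes in the other direction.

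In every one of the 3 clusters and in both libraries, 60 genes were 2-fold or more higher than in the control and 39 lower. Ranked by the smallest of its 6 changes, CG14245 came first, followed by bero, fax, Swim and rgn. Of these, fax (chromosome 3L, 16402796 to 16411828 in the Ensembl annotation of BDGP6) was close to absent from the controls. Its level was 6.80 in Yki and 33.8 in Pvr act renal stem cells (Pvr-act), against 0.228 in EGT>w1118 and 0.338 in PCts>W1118. In the lower tubule PCs (Pvr-act) fax was at 7.20 in Yki and 20.6 in Pvr act, against 0.0541 and 0.0397 in those controls. Yki was 2-fold or more below Pvr act in each cluster, with log2 differences of -2.16, -1.08 and -1.40 from the renal stem cells to the lower segment and lower tubule PCs, and its outside levels were 8.41 in Yki and 13.1 in Pvr act.

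The gene rgn (chromosome 3L, 21382501 to 21424416), required for regrowth of damaged imaginal discs, was among the most abundant genes of the lower segment PCs (Pvr-act). Its level there was 65.6 in Yki and 156.5 in Pvr act, against 3.91 in EGT>w1118 and 4.05 in PCts>W1118 lower tubule PCs. The outside level was 3.71 in Yki, far below the cluster, and 47.7 in Pvr act. The gene bero (chromosome 2L, 20858695 to 20861014) stood nearly level between the genotypes in the renal stem cells (Pvr-act), at 16.3 in Yki and 16.7 in Pvr act, against 0.215 and 0.0279 in the controls. Arc1, which forms capsid-like particles that carry RNA, led the shared genes of the lower tubule PCs (Pvr-act), at 11.8 in Yki and 20.9 in Pvr act against 0.103 and 1.05 in the controls. In the lower segment PCs (Pvr-act) the lead went to Prosap, the fly Shank scaffold protein, at 43.4 in Yki and 50.1 in Pvr act against 1.05 and 0.834, while its outside levels were 1.67 in Yki and 25.3 in Pvr act. Nrg, an adhesion protein of the L1 family, was at 17.6 in Yki and 39.9 in Pvr act there, against 0.691 and 0.114.

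**Figure D2:**
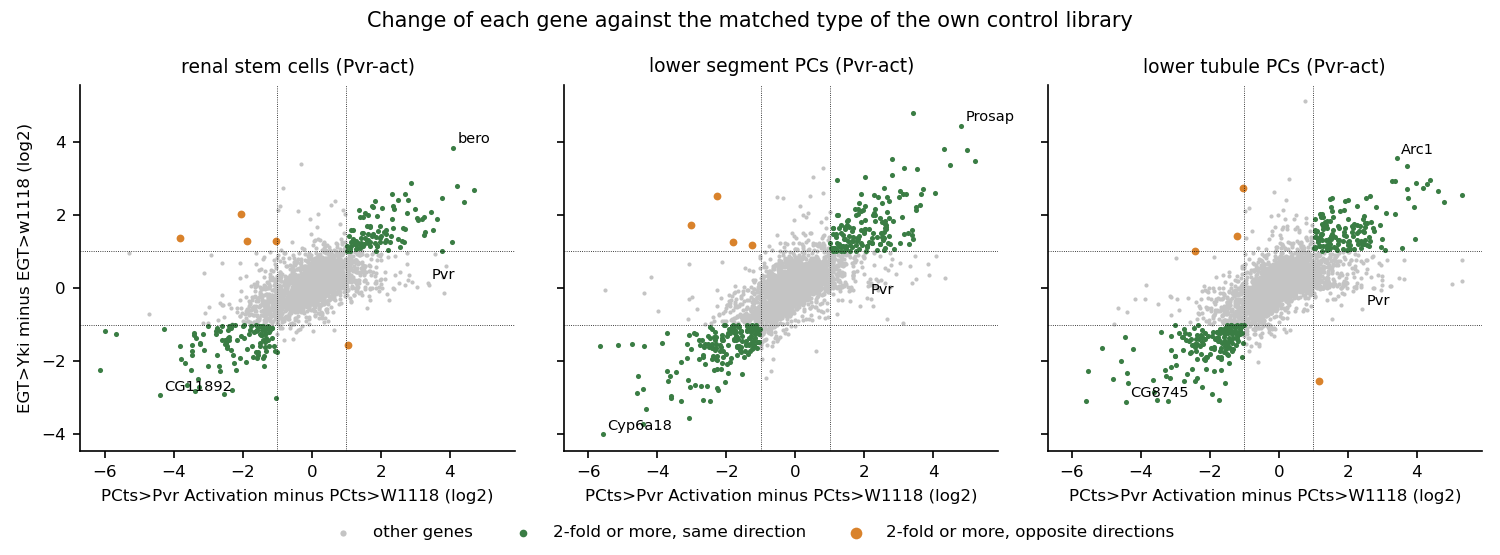
Change of each gene in EGT>Yki against EGT>w1118 (vertical axis, log2) and in PCts>Pvr Activation against PCts>W1118 (horizontal axis, log2) in the 3 clusters. Each point is a gene and the dotted lines mark 2-fold; green points (98, 153 and 139 higher and 110, 169 and 164 lower) passed it the same way in both libraries, and orange points (5, 4 and 4) passed it in opposite ways. Pvr itself lies to the right of the line for 2-fold in Pvr act and near 0 in Yki.

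Smooth septate junctions seal the epithelium of the tubule and gut, and their components mesh, Ssk, hoka and Tsp2A were 2-fold or more higher than in the control in both libraries and all 3 clusters. They were 4 of the 10, 13 and 13 junction genes tested in the renal stem cells, lower segment PCs and lower tubule PCs (Pvr-act), and cora, of the pleated septate junction, joined them in the lower segment PCs (Pvr-act). Over all genes, 3.47%, 2.68% and 1.99% were that much higher in both libraries. Tsp2A (chromosome X, 1346553 to 1348143) had 27.9 in Yki and 19.0 in Pvr act renal stem cells (Pvr-act), against 3.85 and 3.0 in the controls. In the lower segment PCs (Pvr-act) it had 7.52 and 7.39, against 0.95 and 1.14, so that the genotypes differed by 0.02 on the log2 scale. Ssk (chromosome 3L, 20188522 to 20189779) had 21.2 in Yki and 13.9 in Pvr act there, against 3.47 and 3.18, and mesh (chromosome 3R, 31178389 to 31195762) had 11.2 and 10.8, against 1.73 and 1.38. Outside levels were lower than in these clusters for mesh (3.22 in Yki, 2.63 in Pvr act) but reached 17.1 for Ssk in Yki. The junction list as a whole had a median difference between the genotypes of -0.26, -0.26 and -0.22 (medians of all genes tested -0.05, 0.04 and 0.04), and only the gap junction gene Inx2 was apart, lower in Yki renal stem cells (Pvr-act) at 1.07 against 3.30.

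The actin genes Act5C and Act42A were also among the 60 shared higher genes, and were singled out after their values were seen. Act5C had 36.3 in Yki and 43.2 in Pvr act renal stem cells (Pvr-act), against 12.2 and 14.9 in the controls, and outside levels of 21.1 in Yki and 17.3 in Pvr act. Act42A was at least 2-fold lower in Yki than in Pvr act in each cluster, at 3.55 against 12.6 in the renal stem cells (Pvr-act), where the controls had 0.177 and 0.415.

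None of the 6, 7 and 9 tested members of the JNK cascade in the 3 clusters was 2-fold apart between the genotypes. Over all genes 7.06%, 5.21% and 3.11% were higher and 5.84%, 4.04% and 2.56% lower in Yki, so that a count of 0 among so few genes does not set the cascade apart. Its log2 differences had medians of 0.08, 0.11 and 0.08 beside -0.05, 0.04 and 0.04 over all genes. Among the outputs of AP-1 and JNK (8 tested in each cluster), rpr alone was apart, and the list medians were -0.44, -0.26 and 0.002. Against their own controls, 2, 4 and 3 of the 8 were 2-fold or more higher in Yki, and 5, 7 and 6 in Pvr act. Over all genes, 5.38%, 4.01% and 3.13% were that much higher in Yki and 10.3%, 6.04% and 5.77% in Pvr act. The median changes of the list were 0.61, 0.89 and 0.91 in Yki and 1.07, 1.23 and 1.26 in Pvr act. The Fos gene kay (chromosome 3R, 29765995 to 29794113) was higher than in the control in both libraries and all 3 clusters, with 19.8 in Yki and 20.5 in Pvr act lower segment PCs (Pvr-act), against 6.97 in EGT>w1118 and 5.70 in PCts>W1118. Mmp1, a secreted matrix metalloproteinase, had 23.1 in Yki and 13.6 in Pvr act there, against 6.75 and 5.85, and its log2 difference between the genotypes (0.72) stayed under 2-fold. The proapoptotic gene hid had 4.22 in Yki and 3.54 in Pvr act lower tubule PCs (Pvr-act), against 0.476 and 0.735. The JNK phosphatase gene puc was under 2-fold above its control in Yki in all 3 clusters, and had 18.9 in Yki and 18.2 in Pvr act lower tubule PCs (Pvr-act), against 16.1 and 14.7.

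The proapoptotic gene rpr was low in Yki and higher in Pvr act in each cluster. It had 0.150 in Yki against 1.85 in Pvr act renal stem cells (Pvr-act), 0.0756 against 1.72 in the lower segment PCs (Pvr-act), and 0.253 against 7.0 in the lower tubule PCs (Pvr-act). Its control levels were 0.00306 or lower, and its outside levels 0 in Yki and 0.946 in Pvr act.

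Genes lower than the control in both genotypes and all 3 clusters included transport and metabolic genes. Atpalpha, the catalytic subunit of the Na+/K+ pump, had 15.4 in Yki and 3.72 in Pvr act lower tubule PCs (Pvr-act), against 91.3 in EGT>w1118 and 131.2 in PCts>W1118. The multivitamin transporter gene Smvt had 1.69 and 0.0222 there, against 14.5 and 11.9, and the inward rectifier K+ channel Irk3 had 2.03 and 0.0386, against 6.48 and 8.07. The residual levels in Yki were near the outside level (8.68 for Atpalpha, 2.88 for Smvt, 3.13 for Irk3). Tps1, the trehalose-6-phosphate synthase, had 2.64 in Yki and 0.0314 in Pvr act, against 10.9 and 8.03, with an outside level of 7.93 in Yki. The cytochrome P450 gene Cyp6a18 had 0.533 in Yki and 0.000326 in Pvr act lower segment PCs (Pvr-act), against 23.4 and 46.7. At such levels, only 10, 5 and 6 of the 110, 169 and 164 shared lower genes had at least 2 times the outside level in both libraries' clusters, whereas 27, 61 and 27 of the shared higher genes did.

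Between the genotypes directly, 186 of 2635 genes (7.06%) were 2-fold or more higher and 154 (5.84%) lower in Yki in the renal stem cells (Pvr-act). In the lower segment PCs (Pvr-act), 174 of 3340 (5.21%) were higher and 135 (4.04%) lower, and in the lower tubule PCs (Pvr-act) 209 of 6730 (3.11%) were higher and 172 (2.56%) lower. The higher genes were 54.7%, 56.3% and 54.9% of those apart. Among genes with at least 2 times the outside level of the library in which they were higher, that share was 31.9%, 43.4% and 64.5%, and it was 36.9% in the renal stem cells (Pvr-act) when a gene had to be seen in 25% of nuclei. Of 2399 genes tested in all clusters, 73 (3.04%) were higher and 72 (3.0%) lower in each of the 3. The 73 became 36 when a gene had to be seen in 25% of nuclei, 36 after thinning to 500 UMIs and 173 with a pseudocount of 0.1, which also made the 72 into 164. In any cluster, 336 genes were higher and 256 lower in Yki, and 60, 30 and 86 of the higher ones and 40, 31 and 52 of the lower ones were apart in the renal stem cells, lower segment PCs or lower tubule PCs (Pvr-act) alone.

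The genes apart in all clusters were mostly apart in other nuclei of the same libraries too. Of the 73 higher genes, 52 were also 2-fold or more higher in the Yki outside nuclei and 49 in the lower ureter PCs (67 Yki and 86 Pvr act nuclei). Of the 72 lower genes, 64 were also lower in the outside nuclei and 41 in the lower ureter PCs. The outside nuclei were a different mix of tissues in each library, as given above. Set against the controls, the library further from its control was mainly Pvr act. In all 3 clusters, 46 of the 73 higher genes were 2-fold or more below their control in Pvr act and 5 were above it in Yki, and 63 of the 72 lower genes were above their control in Pvr act and none was below it in Yki. EGT>w1118 and PCts>W1118 themselves were apart in the matched types of all clusters for 2 of the 73 and 3 of the 72.

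**Figure D3:**
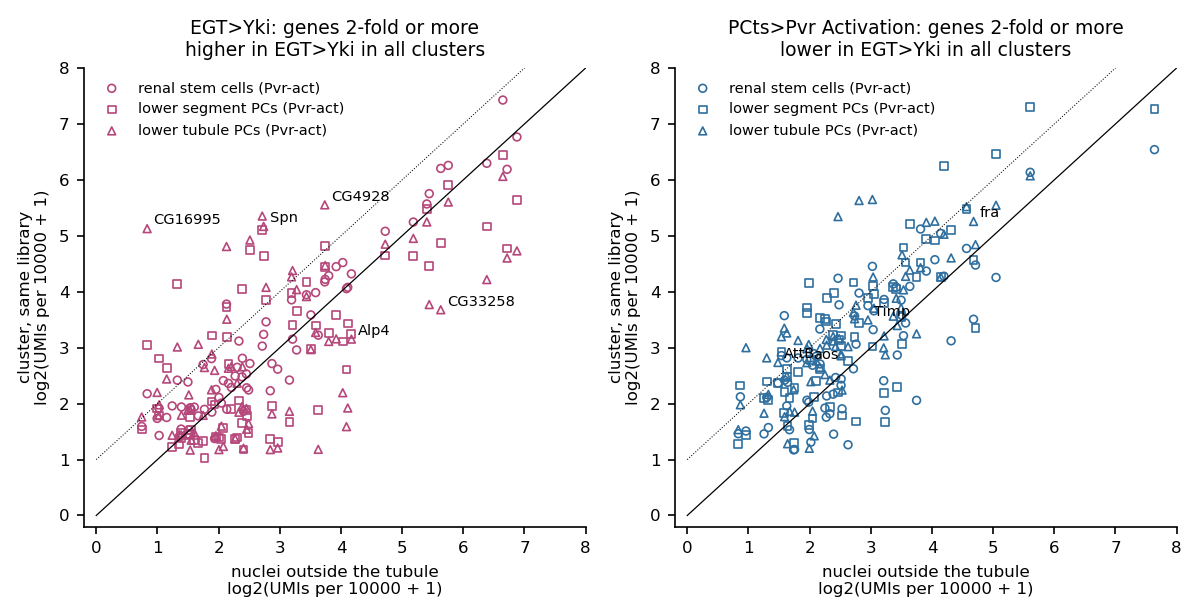
Level in each cluster (vertical axis) against the level in nuclei outside the tubule of the same library (horizontal axis), both as log2(UMIs per 10000 + 1), for the 73 genes higher in EGT>Yki in all clusters (left, EGT>Yki nuclei) and the 72 lower ones (right, PCts>Pvr Activation nuclei). Symbols stand for the clusters, the solid line marks equal levels and the dotted line lies 1 log2 unit above it; Alp4 and CG33258 fall near or below the solid line, and CG16995 in the lower tubule PCs (Pvr-act) lies far above it.

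Pvr (chromosome 2L, 8220980 to 8239878), the transgene's own gene, was lower in Yki than in Pvr act in each cluster. Its level was 1.43 in Yki against 22.8 in Pvr act renal stem cells (Pvr-act), 5.75 against 29.2 in the lower segment PCs (Pvr-act), and 4.50 against 37.4 in the lower tubule PCs (Pvr-act). Yki nuclei stood near their control, which had 1.23 in renal stem cells and 7.22 in lower tubule PCs, and PCts>W1118 had 1.33 and 6.22. Reads of the transgene and of the native gene cannot be told apart in this count. The outside level of Pvr was 15.5 in Pvr act and 2.04 in Yki.

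Argos (aos; chromosome 3L, 16470386 to 16483650), a secreted inhibitor of the EGF receptor that is induced by Ras-MAPK signaling, followed Pvr. In the lower segment PCs (Pvr-act) it had 0.338 in Yki against 12.2 in Pvr act, a log2 difference of -3.30, with 0.224 in EGT>w1118 and 0.263 in PCts>W1118. In the renal stem cells (Pvr-act) aos had 0.150 against 5.92, and in the lower tubule PCs (Pvr-act) 0.489 against 5.64. The Pvr act level was above its outside level (2.88) in each cluster, and the Yki level stayed within 0.30 log2 units of the control. Sprouty (sty), an antagonist of receptor tyrosine kinases, was also apart in all 3 clusters, at 0.829 in Yki against 6.23 in Pvr act lower tubule PCs (Pvr-act), where the controls had 0.479 and 0.584. Of the 10 genes of Ras-MAPK output and feedback, 3, 3 and 2 were lower in Yki, against 5.84%, 4.04% and 2.56% of all genes, and none was higher, with medians of -0.48, -0.26 and -0.21. Mkp3, the phosphatase of the MAPK Rolled, was the remaining one in the renal stem cells (Pvr-act), at 2.21 against 6.13, and rho, the protease that releases EGF receptor ligands, in the lower segment PCs (Pvr-act), at 1.31 against 4.63.

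Even so, rho was one of the 60 genes above control in both genotypes throughout. In the lower tubule PCs (Pvr-act) rho had 6.64 in Yki and 8.96 in Pvr act, against 0.00610 and 0.0239 in the controls, and an outside level of 0.0773 in Yki. Of the cascade upstream (5, 5 and 10 members tested), only rl and csw were 2-fold apart, both in the lower tubule PCs (Pvr-act). The MAPK gene rl had 17.4 in Yki against 6.92 in Pvr act, and csw, a phosphatase of receptor tyrosine kinase signaling, had 0.855 against 5.51. The ligand genes were low in all libraries. Pvf1 had 1.09 in Yki and 3.37 in Pvr act lower segment PCs (Pvr-act), against 0.0793 and 0.0720 in the controls, and Pvf2 had 3.86 and 4.92 in the lower tubule PCs (Pvr-act), against 0.327 and 0.473. Pvf3 was 2-fold apart in the lower tubule PCs (Pvr-act), at 1.01 in Yki against 3.40 in Pvr act.

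By the smallest difference over the 3 clusters, fra and Timp were furthest below Pvr act. The netrin receptor gene fra had 0.0449 in Yki against 10.4 in Pvr act renal stem cells (Pvr-act), 0.304 against 22.6 in the lower segment PCs (Pvr-act), and 0.150 against 37.2 in the lower tubule PCs (Pvr-act). Its pooled log2 ratio in the last was -8.03 (95% exact interval -8.53 to -7.56), and both controls had 0.380 or less. The outside level of fra was 0 in Yki and 24.6 in Pvr act, above the renal stem cells (Pvr-act) of that library. Timp (chromosome 3R, 10203875 to 10213007), the inhibitor of matrix metalloproteinases, had 0.402 in Yki against 12.5 in Pvr act renal stem cells (Pvr-act), 0.322 against 13.8 in the lower segment PCs (Pvr-act) and 0.245 against 10.3 in the lower tubule PCs (Pvr-act). Mmp1, one of the enzymes it inhibits, stayed under 2-fold apart, with log2 differences of 0.41, 0.72 and 0.68. The outside levels of Timp were 0.444 in Yki and 6.75 in Pvr act.

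CG42795, CG44325, CG14687 and lncRNA:CR40469 were lower in Yki in each cluster. CG44325 had 0.776 in Yki against 12.1 in Pvr act lower tubule PCs (Pvr-act). Phk-3, a pherokine of the immune response, had 0.234 against 13.5 in the renal stem cells (Pvr-act), and the cuticle protein gene Cpr67Fb 0.191 against 12.5 in the lower tubule PCs (Pvr-act). Trim9, Ten-a and CG31140 ranked among the lowest genes of Yki only in the lower segment PCs (Pvr-act), with Trim9 at 1.01 against 16.9 and Ten-a, a teneurin adhesion protein, at 0.811 against 14.7. The transcription factor gene ovo had 0 UMIs in Yki against 846 in Pvr act renal stem cells (Pvr-act), which makes it at least 19.4-fold lower in Yki by a floor of 3 counts over the group.

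**Figure D4:**
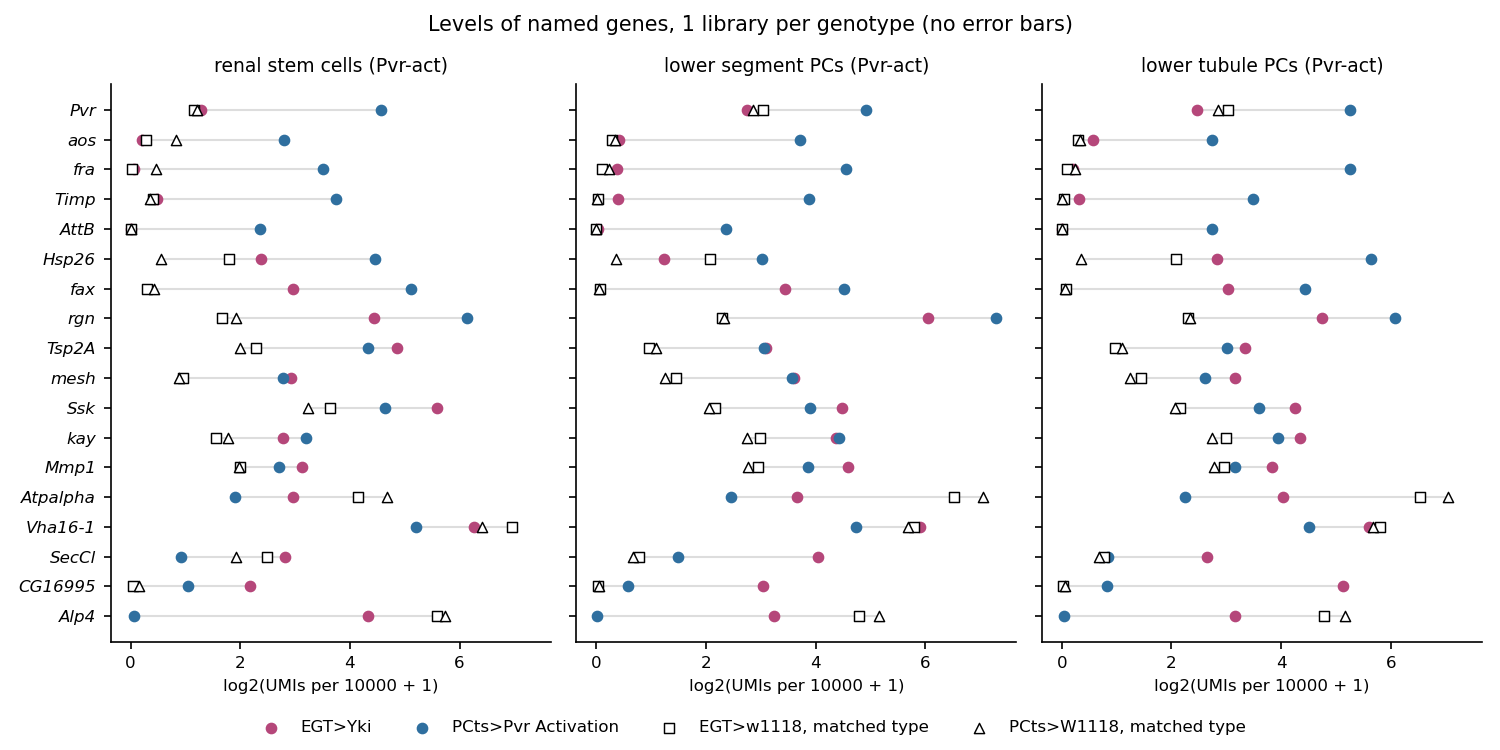
Level of chosen genes, as log2(UMIs per 10000 + 1), in EGT>Yki (red circles), PCts>Pvr Activation (blue circles) and the matched types of EGT>w1118 (squares) and PCts>W1118 (triangles). Each symbol is 1 library, so there is no error bar; for Pvr, aos, fra, Timp and AttB the blue circle lies to the right of the other symbols, whereas for Tsp2A, mesh and kay both circles lie to the right of both controls.

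Heat shock genes were lower in Yki. Of 12, 13 and 14 tested, 7 were lower in the renal stem cells (Pvr-act), 3 in the lower segment PCs (Pvr-act) and 9 in the lower tubule PCs (Pvr-act), against the same shares of all genes as above, none was higher, and the list medians were -1.36, -0.60 and -1.28 beside -0.05, 0.04 and 0.04 over all genes. The small heat shock gene Hsp26 had 6.15 in Yki against 49.2 in Pvr act lower tubule PCs (Pvr-act), while EGT>w1118 had 3.23 and PCts>W1118 0.279. Hsp23 had 8.23 against 39.6, and 0.585 and 0.0256 in the controls. Both genes were higher in EGT>w1118 than in PCts>W1118, the opposite direction, and on the log2 scale Hsp26 was 0.76 above its control in Yki and 5.29 above it in Pvr act. The outside level of Hsp26 was 1.05 in Yki and 7.15 in Pvr act, so that the difference was seen outside the tubule as well.

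Genes of the IMD pathway, which makes antimicrobial peptides, likewise lay on the Pvr act side, with 3 of 7, 4 of 9 and 3 of 11 lower in Yki, against 5.84%, 4.04% and 2.56% of all genes, and none higher. Their medians were -0.90, -0.86 and -0.40, beside -0.05, 0.04 and 0.04 over all genes. AttB, the attacin gene, had 0 UMIs in Yki against 2623 in Pvr act renal stem cells (Pvr-act), at least 60.0-fold lower in Yki by the floor of 3 counts over the group, and 1 UMI in each Yki PC cluster. Both controls had 0 UMIs of AttB in the matched types, and its level in the Pvr act clusters, 4.14 to 5.66, was above the outside level of 1.79. By share of nuclei it was as widespread outside. After thinning to 500 UMIs, AttB was seen in 11.7% of the Pvr act outside nuclei, against 11.3%, 12.2% and 12.1% in the 3 clusters. DptA, a diptericin gene, had 0.127 in Yki against 6.42 in Pvr act renal stem cells (Pvr-act), with an outside level of 3.21 in Pvr act. AttD was 2-fold lower in Yki only in the lower segment PCs (Pvr-act), at 0.405 against 5.50. In the renal stem cells and lower tubule PCs (Pvr-act) it was 2-fold or more above the control in both genotypes. It had 3.53 in Yki and 7.47 in Pvr act renal stem cells (Pvr-act), against 0.00659 and 0.0698 in the controls, and its outside level in Yki was 0.120.

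JAK-STAT genes lay on the Pvr act side, with medians of -0.78, -0.80 and -0.59 beside -0.05, 0.04 and 0.04 over all genes. Of 5, 5 and 7 tested, 1, 1 and 2 were lower in Yki, against 5.84%, 4.04% and 2.56% of all genes. Only 1 was higher, in the lower tubule PCs (Pvr-act), where 3.11% of all genes were. The insulin list (9, 13 and 13 tested) had medians of -0.63, -0.23 and 0.002. In it 1, 2 and 2 genes were lower in Yki, beside the same shares of lower genes, and none was higher. Socs36E, the feedback inhibitor of JAK-STAT signaling, was above control in both genotypes and all clusters and lower in Yki than in Pvr act, with 11.6 in Yki and 36.8 in Pvr act lower tubule PCs (Pvr-act), against 1.73 and 1.49. The cytokine gene upd3 had 1.22 and 1.29 there, against 0.00431 and 0.0168. The receptor gene dome was lower in Yki (0.717 against 2.78) and Stat92E higher (6.81 against 2.28) in that cluster. ImpL2 (chromosome 3L, 4224006 to 4236147), which binds and blocks insulin-like peptides, was lower in Yki in all 3 clusters and near its control there, with 0.187 in Yki against 6.55 in Pvr act lower segment PCs (Pvr-act), and 0.670 and 0.587 in the controls. The insulin receptor gene InR was 2-fold above control in both genotypes in the renal stem cells and lower segment PCs (Pvr-act), at 68.6 in Yki and 82.3 in Pvr act lower segment PCs (Pvr-act), against 31.8 and 36.9 in the controls. Insulin pathway genes were otherwise 2-fold apart only for Pi3K21B in the lower segment PCs (Pvr-act), at 2.17 in Yki against 7.64 in Pvr act, and for Thor in the lower tubule PCs (Pvr-act), at 8.39 against 24.3.

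Of the targets of Yki, 6, 7 and 7 were tested, too few for a count of 0 to differ from the share of all genes (7.06%, 5.21% and 3.11% higher). None was higher in Yki and 1 was lower in each cluster, with medians of -0.45, -0.34 and -0.28 beside -0.05, 0.04 and 0.04 over all genes. The lower gene was Diap1, an inhibitor of apoptosis, with 6.22 in Yki and 18.2 in Pvr act lower tubule PCs (Pvr-act), both above their controls of 1.98 and 2.09. The Hippo cascade, with 5, 5 and 10 members tested, had none apart, which at the shares of all genes is no result about the cascade. The yki gene itself, whose transgene would add to its count, had 1.11 in Yki and 0.842 in Pvr act renal stem cells (Pvr-act), against 0.728 and 0.675 in the controls, and stayed under 2-fold in the PC clusters. EGFP and gal4 transcripts were at 0 UMIs in the renal stem cells (Pvr-act) of both libraries. By the floor of 3 counts over the group, a count of 0 there stands for up to 0.0590 UMIs per 10000 in Yki and 0.00405 in Pvr act. EGT>w1118 renal stem cells had 9 UMIs of EGFP and 6 of gal4 among 1762484 UMIs, and the Yki cluster held only 508757. The 0 in Yki thus cannot show a lower level. In both PC clusters of Pvr act, where the CG31272 driver acts, gal4 was at 0 UMIs too, so that a count of 0 does not show an inactive driver. CG31272, the gene of the Pvr act driver, was higher in Yki in each cluster, at 13.5 against 3.74, 14.7 against 3.92 and 18.2 against 6.82. It was 2-fold or more below its control in Pvr act in both PC clusters. In ordinary renal stem cells it had 1826 of 1762484 UMIs in EGT>w1118 and 601 of 996497 in PCts>W1118. The study describes the driver as a Gal4 splicing trap, which both PCts libraries carried, and its part in these counts was not tested.

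The stem cell label was checked against its markers. Notch (N; chromosome X, 3134870 to 3172221) had 2 UMIs in the Yki renal stem cells (Pvr-act), an exact Poisson interval of 0.242 to 7.22, against 610 in Pvr act, and Delta (chromosome 3R, 19302731 to 19326217), its ligand, had 1 against 269. Ordinary renal stem cells had 141 UMIs of N in EGT>w1118 and 217 in PCts>W1118, and 59 and 224 UMIs of Delta. As a level, Delta was at 0.0228 in Yki and 0.807 in Pvr act, with 0.552 and 3.83 in the controls. Both markers were thus close to absent from the Yki nuclei that carry the name, while Stat92E, the remaining gene of that list, was at 2.95 in Yki and 1.33 in Pvr act. Stat92E was higher in the outside nuclei, at 3.52 in both libraries. It was also higher in the lower segment PCs (Pvr-act), at 5.14 in Yki and 3.40 in Pvr act, and in the lower tubule PCs (Pvr-act), at 6.81 and 2.28. It thus did not mark the nuclei with the stem cell label. The outside level of Delta was 0 in Yki and 0.586 in Pvr act. esg, the gene of the driver, was not analysed here. In Pvr act, Delta also reached 0.677 in the lower segment PCs (Pvr-act), where N had 1553 UMIs. The PC factor gene ct was at 14.1 in Yki and 17.0 in Pvr act renal stem cells (Pvr-act), and at 79.0 and 111.2 in the lower segment PCs (Pvr-act). Its outside level was 4.15 in Yki and 21.9 in Pvr act, the latter above the renal stem cells (Pvr-act) of that library. Alp4, the alkaline phosphatase of the lower tubule, was at 7.90 in Yki and 0.0295 in Pvr act lower tubule PCs (Pvr-act), against 26.6 and 34.8 in the controls. Cell cycle and DNA replication genes gave little to compare, with 1, 3 and 9 of 26 passing the detection filter and none apart.

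On the side of higher genes in Yki, CG33258 led by the smallest of its differences in the 3 clusters. The gene had 72.8 in Yki against 0.158 in Pvr act renal stem cells (Pvr-act), 28.3 against 0.151 in the lower segment PCs (Pvr-act), and 11.8 against 0.0898 in the lower tubule PCs (Pvr-act). The controls had 36.8 and 44.6 in renal stem cells and 31.1 and 23.0 in lower tubule PCs, and the outside level in Yki was 48.6. CG3168 had 43.5 against 0.350 in the lower segment PCs (Pvr-act), with an outside level of 41.3 in Yki. Alp4 had 19.0 in Yki against 0.0387 in Pvr act renal stem cells (Pvr-act), and 17.0 in the Yki outside nuclei. The Yki levels of these genes in the renal stem cells (Pvr-act) were thus close to those in nuclei of other tissues of the same library, and the Pvr act levels were low both in the clusters and outside. CG11878, CG4783 and CG13309 were alike in this, with CG4783 at 22.0 against 0.187 in the renal stem cells (Pvr-act) beside outside levels of 15.3 in Yki and 0.0437 in Pvr act. CG14292 was at 48.8 against 0.786 in the lower segment PCs (Pvr-act), under its outside level of 116.5 in Yki, and CG13315 was at 37.0 against 0.821 in the renal stem cells (Pvr-act), with outside levels of 35.3 in Yki and 10.6 in Pvr act. The part of free RNA in these differences was not tested.

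Only 10, 16 and 19 of the 73 genes had at least 2 times the Yki outside level in the renal stem cells, lower segment PCs and lower tubule PCs (Pvr-act), and 6 had it in all 3. These were CG16995, CG31886, CG8620, Dh31-R, Eip63F-1 and mnd. Dh31-R, the receptor of the diuretic hormone DH31, had 4.35 in Yki against 0.502 in Pvr act renal stem cells (Pvr-act), 16.6 against 2.68 in the lower segment PCs (Pvr-act) and 7.07 against 1.63 in the lower tubule PCs (Pvr-act). Its controls had 7.87 and 5.72 in lower tubule PCs, and its outside levels were 1.51 in Yki and 2.05 in Pvr act. The amino acid transporter gene mnd had 2.78 against 0.217 in the renal stem cells (Pvr-act), with 1.04 outside in Yki. CG16995 was the gene furthest above Pvr act in the lower tubule PCs (Pvr-act), at 34.0 in Yki against 0.763 in Pvr act, with 0.0183 in EGT>w1118 and 0.0409 in PCts>W1118. Its outside level in Yki was 0.780, and the ordinary lower tubule PCs of the Yki library had 31.1, so that in Yki it was as high outside the cluster as in it. On the other side, 5 of the 72 lower genes had at least 2 times the Pvr act outside level in all clusters, namely AttB, CG12009, Cht4, ImpL2 and Septin4. For AttB this holds for the level, not for the share of nuclei at equal depth given above.

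Other genes of the PC had their own levels in the lower tubule PCs (Pvr-act). The Na+-driven anion exchanger Ndae1 had 19.8 in Yki against 0.153 in Pvr act, with 29.7 and 28.3 in the controls and 8.25 outside in Yki. Spn, the fly spinophilin, had 35.0 against 2.0, with 69.8 and 81.8 in the controls and 5.66 outside in Yki, and was thus under 2-fold below its control in Yki and far below it in Pvr act. The gene kumpel had 10.4 against 0.126, with 13.1 and 15.4 in the controls. CG12780 was one of the 5 genes also above its control in Yki in all clusters, with 14.1 against 0.809, 2.32 and 2.30 in the controls and 9.83 outside in Yki.

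Of the vacuolar H+-ATPase subunits, 7 of 14 were higher in Yki in the renal stem cells (Pvr-act) and 9 of 14 in the lower segment PCs (Pvr-act), against 7.06% and 5.21% of all genes, and none was lower. In the lower tubule PCs (Pvr-act) the count was 1 of 15, near the 3.11% of all genes. The list medians were 0.98, 1.05 and 0.33, beside -0.05, 0.04 and 0.04 over all genes. Vha16-1, the proteolipid subunit, was higher in all 3 clusters, at 75.6 against 35.8, 58.9 against 25.6 and 47.6 against 21.8, and its outside levels were 53.0 in Yki and 19.2 in Pvr act. Against their own controls, none of the subunits was 2-fold higher in Yki or in Pvr act, 1, 0 and 1 were lower in Yki, and 10, 9 and 6 were lower in Pvr act. Over all genes, 4.42%, 3.94% and 3.03% were lower in Yki and 13.4%, 6.6% and 5.98% in Pvr act. Of the ion channel and transport genes, 5 of 7, 6 of 13 and 5 of 18 were higher in Yki, against the same shares of all genes, and none was lower, among them Atpalpha, Irk2, SecCl and Irk3 in every cluster. Irk2 had 2.68 in Yki against 0.0593 in Pvr act lower tubule PCs (Pvr-act), with 1.90 and 2.27 in the controls. SecCl, a chloride channel of stellate cells, had 15.6 in Yki against 1.80 in Pvr act lower segment PCs (Pvr-act), where the controls had 0.711 and 0.595 and the outside level in Yki was 4.24. It is a member of the stellate cell list above.

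The transporters that the study had named as lowered by Pvr in these libraries were higher in Yki in 3 of 3, 4 of 5 and 4 of 8 tested, against 7.06%, 5.21% and 3.11% of all genes. Their medians were 2.21, 1.49 and 0.75, and being chosen on these samples they are no independent evidence of that direction. CG4928 had 46.0 in Yki against 5.69 in Pvr act lower tubule PCs (Pvr-act), while the controls had 4.98 and 4.40. For that gene Yki was 2.97 above its control on the log2 scale, and Pvr act 0.31. In the renal stem cells (Pvr-act) CG4928 had 17.1 against 2.90, with 21.8 and 15.5 in the controls, and there it was Pvr act that was 2-fold away. The outside levels of CG4928 were 12.3 in Yki and 19.2 in Pvr act. The diuretic hormone receptors followed, with Dh44-R2 higher in Yki in both PC clusters (2.62 against 0.414 and 1.79 against 0.342) and TyrR, the tyramine receptor, in the lower tubule PCs (Pvr-act), at 2.10 against 0.0153. Of the uric acid and purine genes (3, 4 and 8 tested), CG30016 was 2-fold higher in Yki in the renal stem cells (Pvr-act), at 2.72 against 0.225, and in the lower segment PCs (Pvr-act), at 1.49 against 0.0915, with 2.58 outside in Yki. Uro, urate oxidase, was 2-fold higher in Yki in the renal stem cells (Pvr-act), at 3.50 against 0.796, and below its controls of 12.2 and 19.1. Those controls are the shallow ordinary renal stem cells, and the part of free RNA in their level was not tested. None of the study's kidney stone and cation transport genes (1, 2 and 4 tested, likewise named on these samples) was 2-fold apart. The aquaporins likewise had none apart, with 0, 1 and 2 tested.

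**Figure D5:**
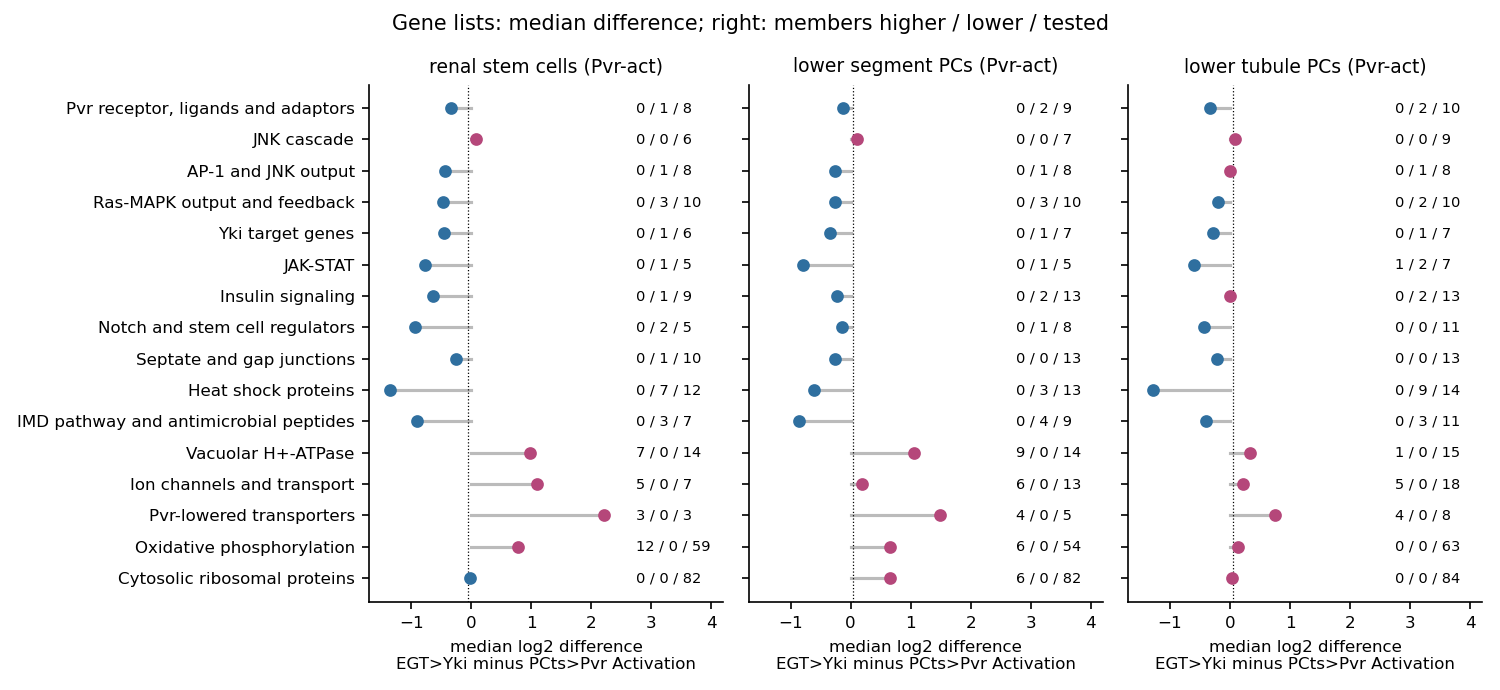
Median log2 difference, EGT>Yki minus PCts>Pvr Activation, of each gene list (points), with the median of all genes tested as the dotted line. The numbers at the right of each panel give the members 2-fold or more higher, lower, and tested; heat shock genes lie to the left and vacuolar H+-ATPase subunits to the right of the dotted line in each cluster.

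Housekeeping lists differed by cluster. Oxidative phosphorylation genes were higher in Yki in 12 of 59 in the renal stem cells (Pvr-act) and 6 of 54 in the lower segment PCs (Pvr-act), and in none of 63 in the lower tubule PCs (Pvr-act), with medians of 0.78, 0.66 and 0.13. Over all genes, 7.06%, 5.21% and 3.11% were higher. Against the controls, 38 of 62 oxidative phosphorylation genes were 2-fold or more lower in Pvr act renal stem cells (Pvr-act), beside 13.4% of all genes. In Yki 4 of them were, near the 4.42% of all genes. ATPsynC and ATPsynO, subunits of the ATP synthase, were in both of the higher sets. Cytosolic ribosomal protein genes were near even in the renal stem cells and lower tubule PCs (Pvr-act) (medians -0.03 and 0.03, none of 82 and of 84 apart) and were higher in Yki in 6 of 82 in the lower segment PCs (Pvr-act), close to the 5.21% of all genes, with a median of 0.66 beside 0.04 over all genes. Their share of UMIs was 22.5% in Yki and 27.2% in Pvr act renal stem cells (Pvr-act), and 5.22% and 3.96% in the lower segment PCs (Pvr-act). The cytochrome P450 list had 6 of 14, 2 of 18 and 2 of 44 genes higher in Yki and 3 lower, all 3 in the lower tubule PCs (Pvr-act). Its share in the lower tubule PCs (Pvr-act) was near the 3.11% of all genes higher there, and 7.06% and 5.21% of all genes were higher in the renal stem cells and lower segment PCs (Pvr-act). Of all genes in the lower tubule PCs (Pvr-act), 2.56% were lower. Glutathione S-transferases went both ways in the renal stem cells (Pvr-act), with GstE12 and GstE10 higher and GstD2 and GstD5 lower in Yki among 11 tested. Of all genes there, 7.06% were higher and 5.84% lower.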

How the data were processed

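MT nuclei were profiled by droplet snRNA-seq, 1 library per genotype. Reads were mapped with Cell Ranger 7.0.0 to the BDGP 6 genome per the labels and the study's methods, and nuclei were filtered, integrated and annotated with Seurat and Harmony. The authors deposited natural log values of UMIs per 10000 plus 1, which were turned back into UMIs per 10000. These summed to 10000 in each nucleus, and 100% of values were whole UMIs within 1e-06. Clusters were taken from the deposited annotation, and no doublet caller was run here. Gene symbols came from the Ensembl annotation, in which 16447 IDs matched and 48 did not.

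Levels were averaged over the nuclei of a cluster in each library. A gene entered a comparison when 10% or more of the nuclei in one of the libraries had a UMI of it, and was compared as log2(level + 1). With 1 library per group no p-value was computed, and 2-fold was the rule of size. Pooled counts gave ratios with exact conditional binomial intervals, and shares had Clopper-Pearson intervals. Named genes were the 8 largest differences in each direction and cluster, the 8 with the largest smallest difference over all clusters, the 6 largest changes shared against the controls, and members of the lists. The genes and lists were chosen with earlier results of these data known. Alternatives covered the pseudocount, detection filter, pooled counts, thinning to 500 UMIs, the outside level and the reference cells. The scripts were tested on simulated data. Python 3.11.15, numpy 2.4.6, scipy 1.17.1, pandas 2.3.3 and matplotlib 3.10.9 were used.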

Additional observations from a re-analysis of the deposited data

Results flagged for a closer look

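In 13 pairs of a gene and a cluster the gene lay 2-fold or more above the control in one library and 2-fold or more below it in the other. Values are log2 differences from the own control, and the difference between the libraries was not tested, since each had 1 library. In the renal stem cells (Pvr-act), CG4783 stood at 1.37 in Yki and -3.80 in Pvr act, Mur29B at 2.02 and -2.04, CG44008 at 1.30 and -1.03, and lectin-37Da at 1.28 and -1.88, while Jupiter, a microtubule-associated protein, went the other way, -1.54 in Yki and 1.04 in Pvr act. In the lower segment PCs (Pvr-act), CG14292 stood at 1.73 in Yki and -3.02 in Pvr act, CG13323 at 2.52 and -2.27, CG42807 at 1.25 and -1.80, and CG17224 at 1.17 and -1.25. In the lower tubule PCs (Pvr-act), Srg2 stood at 2.72 in Yki and -1.04 in Pvr act, CG13323 at 1.01 and -2.43, and CG17224 at 1.42 and -1.20, while CaMKI, a calmodulin-dependent kinase, stood at -2.53 in Yki and 1.18 in Pvr act. In 9 of the 13 the control libraries were themselves 2-fold or more apart, as for CG42807 (0.297 in EGT>w1118, 5.94 in PCts>W1118), lectin-37Da (0.0438 and 2.73) and Jupiter (7.61 and 1.59). In 3 of the 13 the genotypes were under 2-fold apart directly, with log2 differences of -0.86 for Jupiter, 0.63 for CG42807 and 0.98 for CG17224 in the lower segment PCs (Pvr-act). Of the 11 that were higher in Yki, 7 were at or below their outside level in Yki, namely lectin-37Da, CG14292, CG42807, and CG13323 and CG17224 in both PC clusters. The remaining 4, CG4783, Mur29B, CG44008 and Srg2, were above it. Srg2 was at 7.83 against 1.41 outside and Mur29B at 8.39 against 3.58. CG4783, at 22.0 against 15.3, and CG44008, at 4.63 against 3.83, were under 2 times the outside level.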

How the results depend on the processing

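No paired analysis was possible because each group has 1 library. A pseudocount of 0.1 in place of 1 gave 352 higher and 391 lower genes in the renal stem cells (Pvr-act), 522 and 367 in the lower segment PCs (Pvr-act), 724 and 559 in the lower tubule PCs (Pvr-act), and 173 and 164 in all 3. Detection in 25% of nuclei left 73 higher genes in the renal stem cells (Pvr-act) and 36 in all 3. Thinning to 500 UMIs left 122 higher and 100 lower genes in the renal stem cells (Pvr-act) and 36 higher in all 3. Asking for 2 times the outside level left 22 higher and 47 lower genes, 49 and 64, and 118 and 65 in the 3 clusters, and 6 and 5 in all 3. Of genes lower than the control in both libraries, the lower segment PCs (Pvr-act) had 283 with lower ureter PCs as the reference. With the ordinary lower tubule PCs of the Yki library as its reference, the lower segment PCs (Pvr-act) shared 85 lower genes, and the lower tubule PCs (Pvr-act) shared 77 higher and 58 lower. Centring moved the correlation of namesakes to 0.771 and 0.556 in the PC clusters. For 32 named genes, 669 of 672 alternative values stayed 2-fold or more apart in the same direction and 0 reversed, while 176 were marked as moved and 496 as the same. These genes had been picked for large differences in the same data, so that staying 2-fold apart was largely set in advance. The outside-level rule, the nuclei with 500 or more UMIs, the centring per gene and the use of the Yki library's own PCs were chosen after seeing the data. Yki renal stem cells (Pvr-act) held 508757 UMIs against 7416037 in Pvr act, which limits what could be seen of low genes there.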
